A study of Mus musculus with 3 samples.

Results

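The transcripts described here are 10 long RNAs that host small nucleolar RNAs (snoRNAs) in their introns: Gas5, Snhg1, Snhg3, Snhg4, Snhg5, Snhg6, Snhg8, Snhg12, Zfas1 and Epb41l4aos. They were taken by symbol from the 32285 gene identifiers of the deposited matrices, where 11 identifiers carry the 10 symbols because Snhg4 is listed under a pair of them. Their polyadenylated RNA was counted in single E14 mouse embryonic stem cells of 129/Ola background with 10x Genomics 3′ chemistry, in which each unique molecular identifier (UMI) stands for 1 captured molecule. All cells grew in serum with leukaemia inhibitory factor and were treated a day after seeding. The control library received DMSO for 6 h, the other libraries 10 uM tubercidin for 3 h or for 6 h. There is no 3 h DMSO library, so each 3 h ratio sets 3 h of tubercidin against 6 h of DMSO. Each condition is 1 library of 1 line, so no difference between conditions has a replicate check, no p-value is given, and every interval covers counting error only.

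A snoRNA host is transcribed and spliced like other genes, and its snoRNAs are trimmed out of the excised introns. C/D snoRNAs guide ribose methylation and H/ACA snoRNAs guide pseudouridylation of ribosomal and small nuclear RNA. The spliced host that remains often carries only short reading frames, is bound by ribosomes, and is a classic substrate of nonsense-mediated decay (NMD), the translation-coupled removal of transcripts with an early stop. Many hosts begin with a 5′ terminal oligopyrimidine (TOP) tract, a cytidine followed by a run of pyrimidines that they share with ribosomal protein genes. Gas5 was first isolated as a transcript abundant in growth-arrested cells, and Snhg1 was among the earliest non-coding snoRNA hosts described. Tubercidin is an adenosine analogue, 7-deazaadenosine, that cells can build into RNA.

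The start sites of the hosts are shown first, because the TOP tract is the sequence feature for which this family is best known. RefSeq start sites (GRCm38.p6) were found for 7 of the 10 hosts, with 8 start sites in all. A tract was counted where a C followed by at least 4 bases of C or T began within 5 bases of the start, read on the gene's own strand. Each window below runs from 20 bases before to 20 bases from the start, with the tract in capitals. By this rule the first 4 hold a tract and the last 4 hold none.
Snhg12, chr4:132308658-132308697, plus strand: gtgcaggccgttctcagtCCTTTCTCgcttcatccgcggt
Snhg8, chr3:123508317-123508356, minus strand: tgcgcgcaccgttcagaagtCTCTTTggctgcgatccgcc
Snhg3, chr4:132353667-132353706, minus strand: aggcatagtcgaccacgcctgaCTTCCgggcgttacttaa
Gas5 at its downstream start, chr1:161035146-161035185, plus strand: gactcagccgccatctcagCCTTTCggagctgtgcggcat
Gas5 at its upstream start, chr1:161034581-161034620, plus strand: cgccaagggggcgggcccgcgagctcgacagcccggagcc
Snhg1, chr19:8723467-8723506, plus strand: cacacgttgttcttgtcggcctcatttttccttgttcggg
Snhg5, chr9:88522878-88522917, minus strand: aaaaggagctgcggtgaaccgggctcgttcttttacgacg
Zfas1, chr2:167062914-167062953, plus strand: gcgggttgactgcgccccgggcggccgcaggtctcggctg

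A tract was found at 50% of these 8 start sites, at 18.3% of all 32851 start sites in the table and at 41.6% of the 77 start sites of ribosomal protein genes. Ribosomal protein genes are known for such tracts, so the rule can miss them. A window without a tract therefore does not show that its host lacks one. The E-box CACGTG, which reads the same on both strands, was sought in the whole stretch from 250 bases before to 50 bases after each start and lay in 0 of the 8 stretches and in 7.15% of all. The longest tract, 8 bases in Snhg12, belongs to the host with the highest ratio to control at both times. The tracts of 6 and 5 bases in Snhg8 and Snhg3 belong to 2 of the 3 hosts that were lowest. The tract of 6 bases at the downstream start of Gas5 belongs to a host that stayed within 1.5-fold of control. Snhg4, Snhg6 and Epb41l4aos had no start site in the table. Among the hosts with a start site, tracts found by this rule thus lay at both ends of the response and near control.

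The snoRNAs themselves are not polyadenylated, and 0 of the deposited identifiers has a snoRNA symbol of the Snord or Snora kind, so the values below are of the hosts alone. GENCODE M21 (GRCm38) places 33 loci of biotype snoRNA on the hosts' own strand. By a search for the box sequences, 20 have C and D boxes, 7 have an ACA box near the 3′ end, and in 6 neither was found. Cargo of Snhg12, Snhg6 and Snhg8, a high host and the 2 that were lowest at 6 h, is shown with the C box TGATGA and the D box CTGA, or the ACA box, in capitals. Snhg12 carries both classes, Snhg6 a single C/D snoRNA and Snhg8 a single H/ACA snoRNA.
Snord99 in Snhg12, chr4:132310691-132310764, plus strand: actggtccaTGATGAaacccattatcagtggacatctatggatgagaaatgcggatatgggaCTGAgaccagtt
Snord87 in Snhg6, chr1:9942463-9942549, minus strand: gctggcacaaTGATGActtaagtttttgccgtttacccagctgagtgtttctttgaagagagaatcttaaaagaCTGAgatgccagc
Snora24 in Snhg8, chr3:123507937-123508066, minus strand: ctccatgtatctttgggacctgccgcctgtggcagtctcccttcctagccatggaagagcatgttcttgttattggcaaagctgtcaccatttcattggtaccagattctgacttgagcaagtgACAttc

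The called cells numbered 2031 in control, 2365 at 3 h and 2926 at 6 h, with medians of 48452, 11877 and 8004.5 UMIs per cell. Less RNA in a cell and shallower sequencing of a library cannot be told apart here. Levels are therefore given as UMIs per 1000000 UMIs of the library's cells (CPM), which are relative to all other RNA, with UMIs per cell beside them. Each pair of libraries shared 1 cell barcode. All 8 stem cell markers were detected in each library, with summed levels of 4069, 4838 and 3504 CPM. Single markers moved in both directions under these sums. At 3 h, 1 was at least 1.5-fold higher and 2 lower, against 3.61% and 24.5% of all genes. At 6 h, 2 were higher and 4 lower, against 7.06% and 16.9%. Markers of fibroblasts, primitive endoderm, trophoblast and 2-cell-like cells summed to between 0 and 10.8 CPM per list. Ratios are log2 of CPM + 1. Their intervals come from the counts without the added 1, so at low CPM a ratio can sit off the centre of its interval. The background is the 7884 genes that average 10 CPM or more over the libraries, all 10 hosts included. The median gene of that background stood at -0.27 at 3 h and -0.12 at 6 h.

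Snhg12 and Snhg4 were more than 2-fold higher relative to the library total at both times, Snhg8, Snhg6 and Snhg3 were at least 1.5-fold lower, and the other 5 hosts stayed within 1.5-fold, while per cell every host was lower. At 3 h, 2 hosts were at least 1.5-fold higher, where 3.61% of all genes were, and 3 were at least 1.5-fold lower, where 24.5% were. At 2-fold, 2 hosts were higher against 0.888% of all genes and 2 were lower against 5.54%. At 6 h the counts were again 2 higher and 3 lower at 1.5-fold, against 7.06% and 16.9% of all genes, and 2 and 2 at 2-fold, against 2.33% and 4.41%. With 10 genes, a share of the family moves in steps too coarse to set against these percentages closely. The family had no common direction: its median ratio was -0.12 at 3 h and 0.01 at 6 h. Its middle 50% spanned 1.10 and 1.06 on the log2 scale, where that of all genes spanned 0.61 and 0.63. By a rule of size, Snhg12 was 25th and Snhg4 33rd from the top of the 7884 genes at 3 h, and Snhg8 was 17th from the bottom at 6 h.

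**Figure D1:**
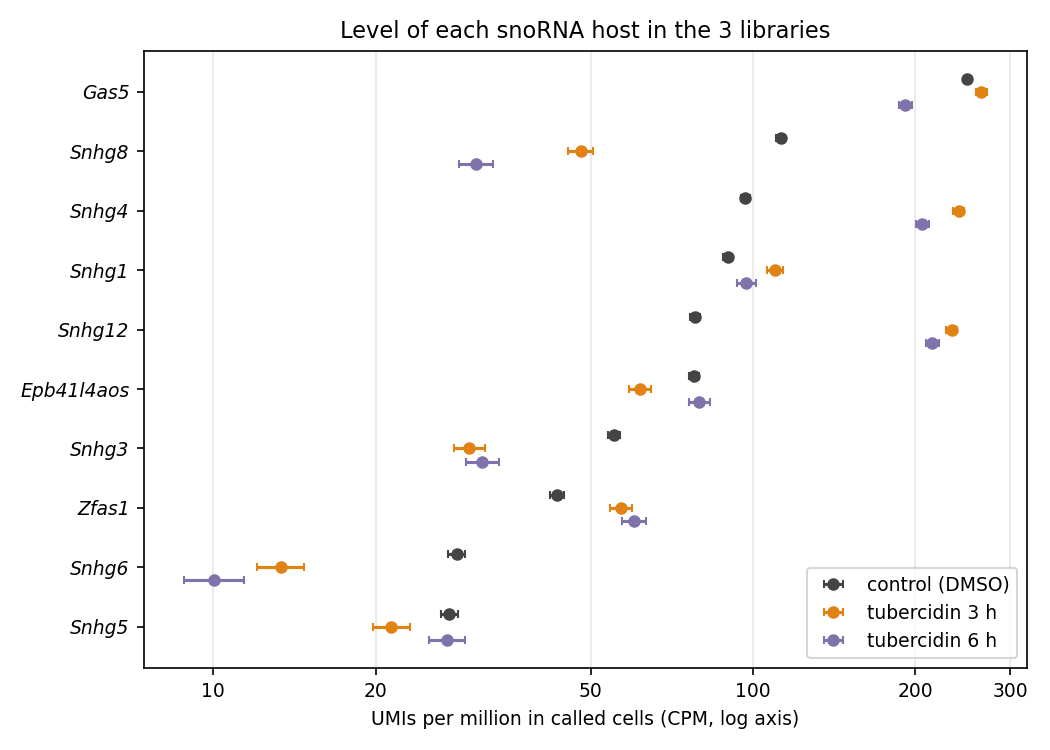
Level of each host in the called cells of the 3 libraries, in CPM on a log axis, ordered by the control level, with exact 95% Poisson intervals. Snhg12 and Snhg4 lie between 206 and 240 CPM in the tubercidin libraries and below 100 CPM in control, and Snhg8 and Snhg6 lie to the left of their control values; per cell all 10 were lower after tubercidin.

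Snhg12, the host of both snoRNA classes, spans chr4:132308623-132311024 on the plus strand, with 4 snoRNA loci. It was counted 8186, 6978 and 5302 times in control, 3 h and 6 h, which is 78.0, 233 and 215 CPM. Both tubercidin libraries were high and close to each other, with log2 ratios of 1.57 (95% interval 1.53 to 1.63) at 3 h and 1.45 (1.41 to 1.51) at 6 h. Per cell it had 4.03, 2.95 and 1.81 UMIs, which is 1.37-fold and 2.22-fold lower. In the processing alternative scaled by UMIs per cell, Snhg12 was at a log2 of -0.44 at 3 h and -1.13 at 6 h. The median gene was at -2.16 and -2.53 in that same alternative. Snhg12 thus kept more of its UMIs per cell than any other host in both libraries.

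Among the hosts in which only H/ACA boxes were found, Snhg4 stood on the high side and Snhg8 and Snhg3 on the low side. Snhg4, the host of Snora74a, had 10145, 7187 and 5086 UMIs, which is 96.7, 240 and 206 CPM. Its log2 ratios were 1.31 (1.27 to 1.36) and 1.08 (1.04 to 1.14), and per cell it was 1.64-fold and 2.87-fold lower. Snhg8, a short host around Snora24, had 11798, 1433 and 758 UMIs, or 112, 47.9 and 30.7 CPM. Its ratios were -1.21 (-1.31 to -1.15) and -1.84 (-1.98 to -1.77), and it was the second most abundant host in control and the eighth at 6 h. Per cell it was 9.59-fold and 22.4-fold lower. Snhg3, the host of Snora73a and Snora73b, had 5800, 891 and 778 UMIs, or 55.3, 29.8 and 31.5 CPM. Its ratios of -0.87 (-0.99 to -0.79) and -0.79 (-0.92 to -0.70) were alike, with the treated libraries low and overlapping in their intervals. Epb41l4aos, whose longest annotated transcript of 430 bases is the shortest among the 9 hosts in GENCODE M21, was at 77.9, 61.7 and 79.5 CPM, with ratios of -0.33 and 0.03, the second of them spanning 0 in its interval.

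In the other 5 hosts C/D boxes were found and no ACA box; Snhg6 was lower and 4 stayed near control. Gas5, with 9 snoRNA loci on chr1:161034422-161038539, was the most abundant host in control. It had 26134, 7921 and 4728 UMIs, or 249, 265 and 192 CPM. Its ratio was 0.09 (0.05 to 0.13) at 3 h and -0.38 (-0.42 to -0.33) at 6 h, so the time points lay on opposite sides of control. Per cell it was 3.84-fold and 7.96-fold lower. Snhg1, which holds 8 snoRNA loci, was at 89.8, 110 and 97.2 CPM, with ratios of 0.29 (0.24 to 0.35) and 0.11 (0.05 to 0.18). Zfas1, the host of Snord12, was at 43.4, 56.9 and 60.2 CPM, with ratios of 0.38 and 0.46. Snhg5, the host of Snord50a and Snord50b, was at 27.4, 21.4 and 27.1 CPM, with ratios of -0.34 and -0.01. These 4 hosts stayed within 1.5-fold of control in both libraries. Snhg6, the host of Snord87, had 2962, 399 and 248 UMIs, or 28.2, 13.3 and 10.0 CPM, with ratios of -1.03 (-1.24 to -0.93) and -1.40 (-1.68 to -1.30). It was the least abundant host after tubercidin and was 8.64-fold and 17.2-fold lower per cell.

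**Figure D2:**
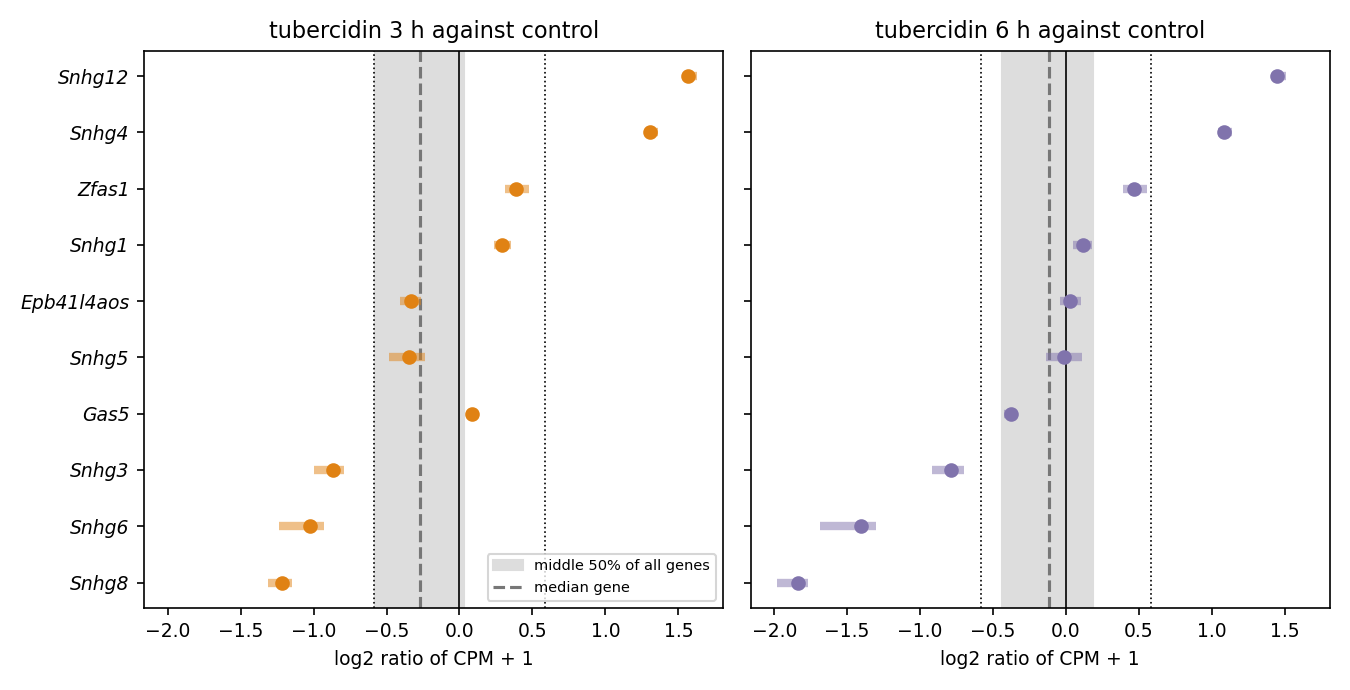
Log2 ratio of each host to control at 3 h (left) and 6 h (right). Points are ratios of CPM + 1, and bars are 95% counting intervals of the ratio without the added 1. Dotted lines mark 1.5-fold, and the grey band holds the middle 50% of 7884 genes around their median (dashed). Snhg12 and Snhg4 lie above the upper dotted line and Snhg8, Snhg6 and Snhg3 below the lower one at both times; per cell the ratios of all 10 hosts were below 0.

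The order of the hosts changed accordingly. These are counts of 3′ tags that were not divided by transcript length, so they rank tags rather than full-length molecules. In control, Gas5 led, followed by Snhg8, Snhg4 and Snhg1, then Snhg12 and Epb41l4aos at 78.0 and 77.9 CPM, Snhg3, Zfas1, and Snhg6 and Snhg5 at 28.2 and 27.4 CPM. The neighbours Snhg12 and Epb41l4aos, and Snhg6 and Snhg5, did not differ beyond counting error. At 3 h Gas5 still led, and Snhg4 and Snhg12 followed with overlapping intervals. At 6 h Snhg12 and Snhg4 led with overlapping intervals, and Gas5 followed with its interval below both. Of the family's UMIs, Snhg12 made up 9.09%, 21.6% and 22.6% in control, 3 h and 6 h. Snhg4 went from 11.3% to 22.3% and 21.7%, Gas5 from 29.0% to 24.5% and 20.2%, and Snhg8 from 13.1% to 4.44% and 3.24%.

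The 10 hosts together held 90031, 32285 and 23416 UMIs, which is 858, 1080 and 949 CPM. The summed ratio was 0.33 (0.31 to 0.35) at 3 h and 0.14 (0.12 to 0.17) at 6 h. Without Snhg4 and Snhg12, the 2 hosts with the highest ratios to control, it was -0.17 and -0.37. Leaving out the highest hosts had to lower the sum. The median gene stood at -0.27 and -0.12. From 3 h to 6 h the sum was lower by a ratio of -0.19 (-0.21 to -0.16), and -0.20 without the pair. In that comparison 0 hosts were at least 1.5-fold higher, against 8.51% of all genes, and 1, Snhg8, was at least 1.5-fold lower, against 1.67%. At 2-fold the counts were 0 and 0, against 1.64% and 0.165% of all genes. The ratios of 6 h to 3 h ran from -0.63 in Snhg8 to 0.36 in Epb41l4aos. Snhg5 and Epb41l4aos, at 0.33 (0.18 to 0.50) and 0.36 (0.27 to 0.46), were lower at 3 h and near the control level at 6 h. Their 3 h ratios of -0.34 and -0.33 lay near the median gene at -0.27. With median-of-ratios factors, an alternative scaling, they were at -0.11 and -0.09 at 3 h. From 3 h to 6 h they were at 0.11 and 0.14 with those factors, so the size of this dip depends on the scaling. The comparisons with control share the control library, so the likeness of their calls is no independent repeat.

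At equal depth the shift in Snhg12 and Snhg4 was spread over many cells. Each cell was thinned to 4000 UMIs, which left 2031, 2243 and 2642 cells and dropped 0, 122 and 284. Snhg12 was then seen in 26.3% of control cells (exact 95% interval 24.4 to 28.3), 58.9% (56.8 to 60.9) at 3 h and 55.0% (53.1 to 56.9) at 6 h. At least 2 UMIs were found in 3.89%, 25.1% and 21.5% of cells. Snhg4 was seen in 32.3%, 59.7% and 52.9% of cells, Gas5 in 58.5%, 61.2% and 51.4%. Snhg8 was seen in 35.5%, 17.5% and 11.4%, Snhg6 in 9.85%, 5.57% and 4.35%, and Snhg3 in 20.5%, 11.8% and 12.0%. Without thinning, Snhg12 had a UMI in 95.3%, 88.7% and 74.1% of cells and Snhg8 in 97.8%, 43.1% and 22.1%. Free RNA was read in the 10000 barcodes ranked after the top 5000, with medians of 343, 210 and 138 UMIs, where Snhg12 had a UMI in 1.88%, 2.62% and 1.16% of barcodes, Snhg4 in 1.72%, 3.08% and 1.72%, Gas5 in 6.53%, 5.61% and 2.20%, and Snhg8 in 2.95%, 0.97% and 0.34%. Over 45 pairs of hosts, Pearson's r at equal depth lay between -0.040 and 0.109 in control. It lay between -0.050 and 0.075 at 3 h, and between -0.027 and 0.071 at 6 h. These correlations rest on sparse counts and are given as a description. No host averaged more than 1.07 UMIs in a thinned cell. Counting noise at that depth keeps r low even between related genes, so these values cannot show whether the hosts vary together.

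**Figure D3:**
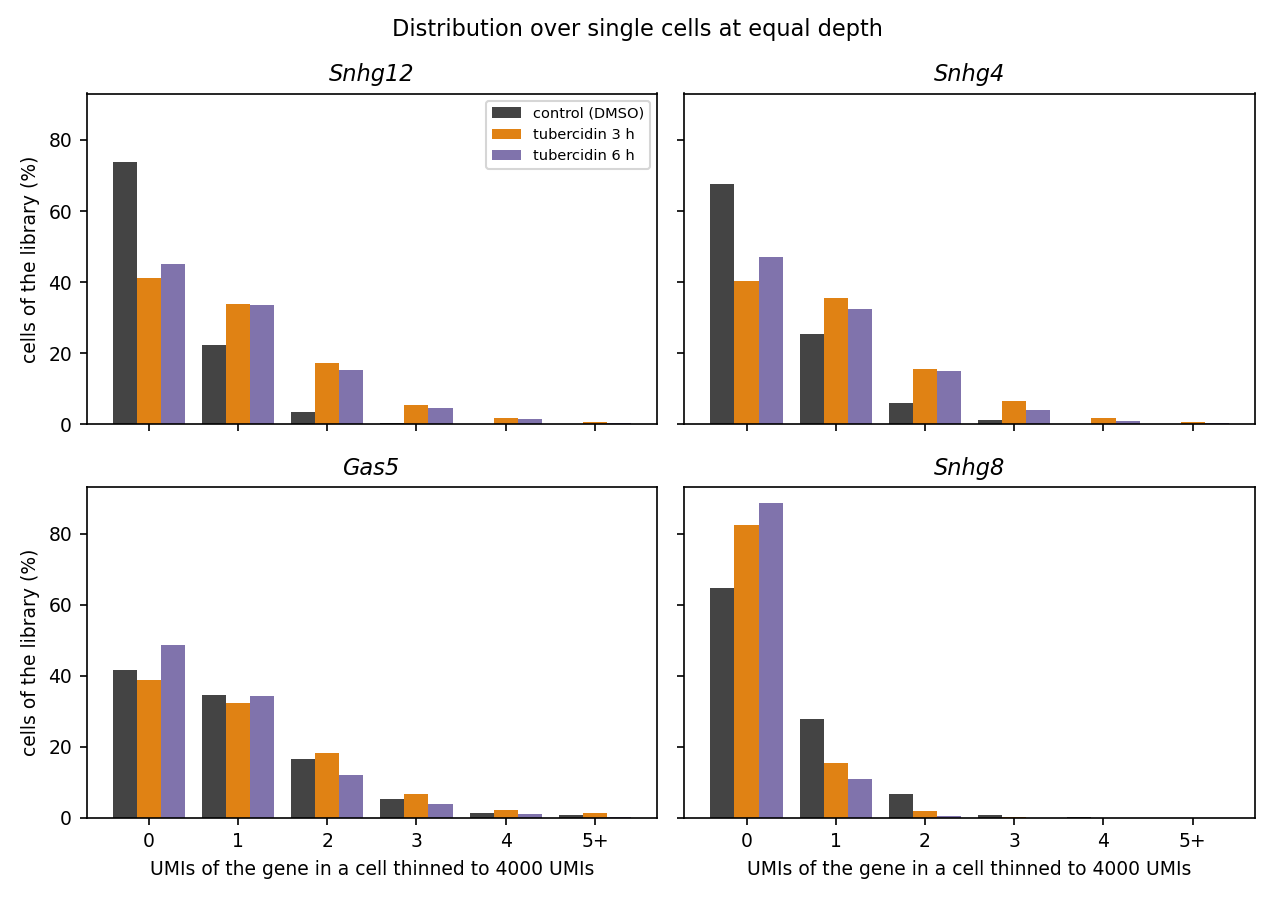
Share of cells with 0 to 5 or more UMIs of Snhg12, Snhg4, Gas5 and Snhg8 after each cell was thinned to 4000 UMIs; bars are percentages of the library's thinned cells. For Snhg12 the bar at 0 is the largest in each library, at 73.7% of cells in control and 41.1% at 3 h, and cells with at least 2 UMIs reach 25.1% at 3 h; for Snhg8 the bar at 0 is taller in both tubercidin libraries.

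The ratios were also read within tertiles of UMIs per cell of each library. Snhg12 had ratios between 1.55 and 1.64 at 3 h and between 1.43 and 1.46 at 6 h in the 3 tertiles. Snhg4 had 1.12 in the shallowest and 1.43 in the deepest tertile at 3 h, and 0.86 and 1.23 at 6 h. From the shallowest to the deepest tertile, Snhg8 had -1.31, -1.20 and -1.18 at 3 h and -2.15, -1.88 and -1.70 at 6 h. Snhg6 had -0.58, -1.11 and -1.18 at 3 h and -1.38, -1.46 and -1.38 at 6 h. The direction of these 4 hosts was the same in all tertiles at both times. The size differed between the shallowest and deepest tertile most for Snhg6 at 3 h, and hardly for Snhg6 at 6 h or Snhg12.

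Free RNA was compared with cells of the same library, since it enters every droplet. Snhg12 was higher in cells than in free RNA in each library, with log2 differences of 0.51 (0.30 to 0.73), 0.90 (0.72 to 1.08) and 1.39 (1.12 to 1.67) in control, 3 h and 6 h. Snhg4 was higher in cells by 0.94, 0.73 and 0.75. Snhg5 was lower in cells than in free RNA in each library, by -0.46, -0.59 and -0.44. For scale, Actb, a cytoplasmic mRNA, differed by 0.20, 0.07 and 0.02, and Malat1, a nuclear long RNA, by 0.04, -0.06 and 0.29. In free RNA itself, Snhg12 was at 54.7, 125 and 82.1 CPM and Snhg8 at 86.2, 45.8 and 24.1 CPM, so for these 2 hosts the free RNA of the tubercidin libraries lay on the same side of control as the cells.

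**Figure D4:**
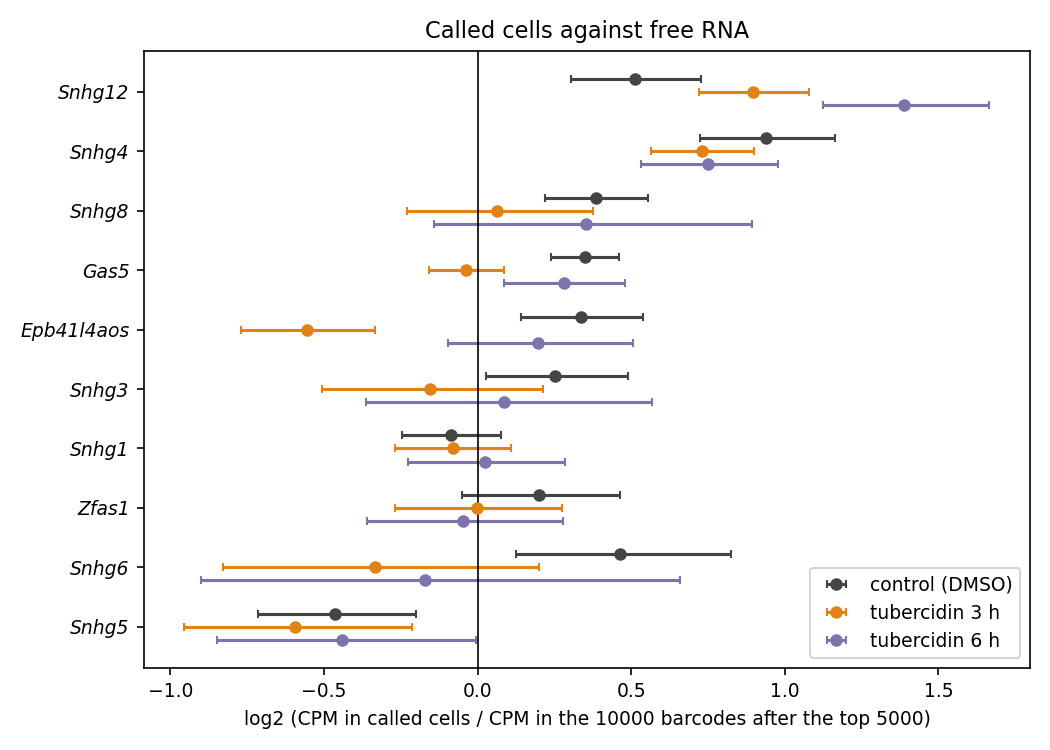
Log2 ratio of each host's CPM in called cells to its CPM in the 10000 barcodes ranked after the top 5000 of the same library, with 95% counting intervals. Snhg12 and Snhg4 lie to the right of 0 in all 3 libraries and Snhg5 to the left; the Snhg12 values run from 0.51 in control to 1.39 at 6 h.

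The genes overlapping a host or within 5 kb of it give its surroundings, and the widest gap was at Snhg6. Mcmdc2, a meiotic gene on the opposite strand, ends within the last exon of Snhg6 and shares 127 exonic bases with it on chr1. Mcmdc2 was at 1.52, 30.3 and 44.4 CPM while Snhg6 was at 28.2, 13.3 and 10.0. Mcmdc2 had 159, 907 and 1096 UMIs. How strand was used in counting is not given in the sources used here, so tags from the shared bases could fall to either gene. Snhg3 overlaps Rcc1, the nuclear exchange factor of Ran, on the same strand over 5592 of its 5673 bases, and 135 exonic bases belong to both. An Rcc1 exon covers the last annotated exon of Snhg3, so tags from those bases cannot be assigned to either gene by position or strand. Rcc1 was at 49.5, 71.0 and 78.8 CPM, with ratios of 0.51 and 0.66, against -0.87 and -0.79 in Snhg3. Gm17300, a non-coding RNA on the opposite strand, shares 705 exonic bases with Snhg3 and was at 3.08, 3.18 and 4.82 CPM.

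**Figure D5:**
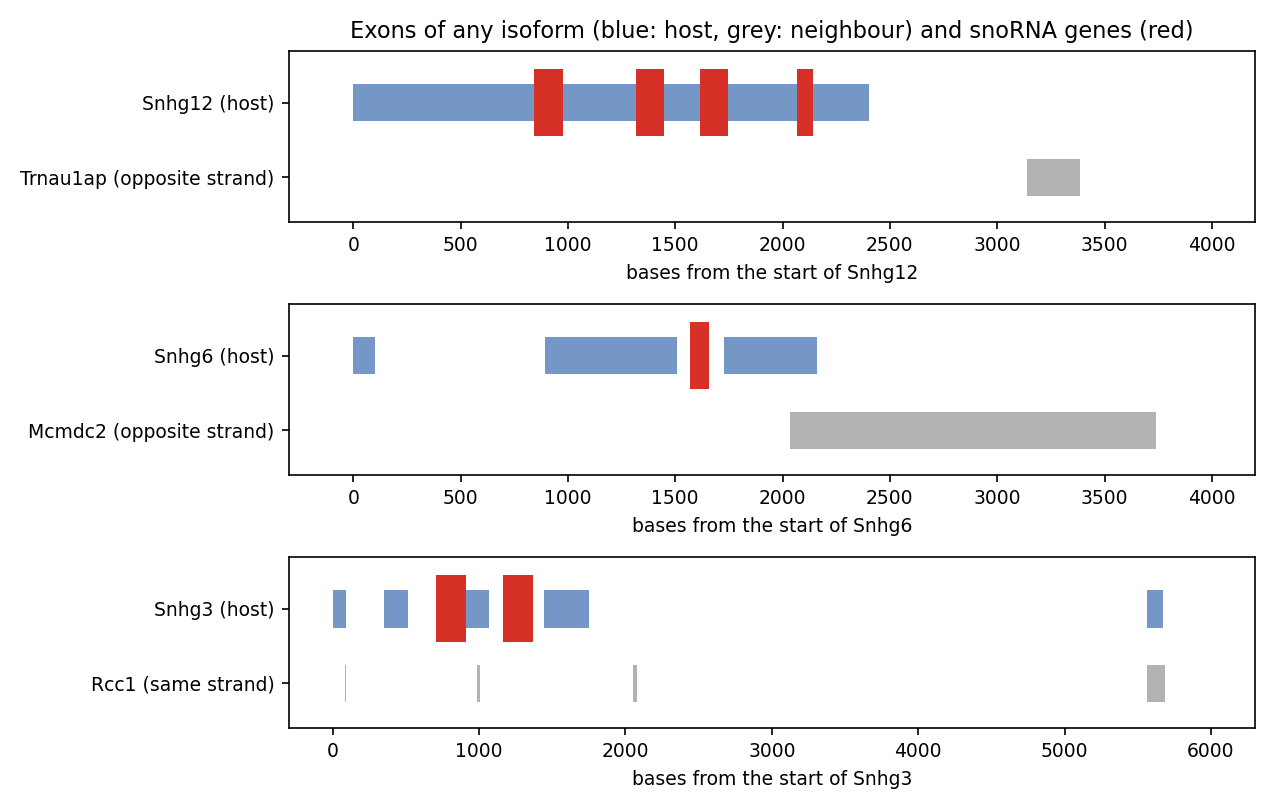
Exons of any annotated isoform (blue for the host, grey for the neighbour) and snoRNA genes (red) around Snhg12, Snhg6 and Snhg3, in bases from the host's start. Exons of retained-intron isoforms fill Snhg12, Mcmdc2 ends inside Snhg6 with 127 shared exonic bases, and Rcc1 shares 135 exonic bases with Snhg3.

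Of the other neighbours, some stand tail to tail or head to head with their host. Tail to tail, Prss12, 954 bases from Snhg8, was at 2.58, 5.02 and 9.12 CPM, with ratios of 0.75 and 1.5 where Snhg8 was lower. Trnau1ap, 738 bases from Snhg12, was at 57.9, 44.4 and 41.0 CPM, with ratios of -0.38 and -0.49 where Snhg12 was higher. Epb41l4a, 340 bases from Epb41l4aos, was at 73.7, 92.1 and 102 CPM. Head to head, Zbtb37, which overlaps Gas5 by 428 bases, was at 12.8, 6.92 and 6.12 CPM, with ratios of -0.80 and -0.95. Slc3a2, the heavy chain of amino acid transporters, starts 105 bases from Snhg1 and was at 232, 214 and 143 CPM. Znfx1, which overlaps Zfas1 by 82 bases, was at 10.1, 7.36 and 9.76 CPM. On the same strand as their host, Phactr4 near Snhg3 and Gm37362 and Gm37634 near Gas5 were at 35.0 CPM or less in each library.

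Snhg4 lies on chr18:35553410-35558316, plus strand, in RefSeq, 3821 bases before Matr3, which encodes a nuclear matrix RNA-binding protein. The values above are those of ENSMUSG00000117869. The second identifier of that symbol, ENSMUSG00000117694, is named Gm28285 in GENCODE M21, where it runs from Snhg4 into Matr3. It had 451, 429 and 365 UMIs, or 4.30, 14.4 and 14.8 CPM, with ratios of 1.53 and 1.57. Both identifiers were thus higher in the tubercidin libraries relative to the total, while Matr3 was at 129, 85.4 and 102 CPM, with ratios of -0.59 and -0.34.

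Of 12 further non-coding snoRNA hosts listed, 11 were in the matrices and 9 passed the level filter, with medians of -0.21 at 3 h and -0.08 at 6 h. At 3 h 1 was at least 1.5-fold higher and 1 lower, and at 6 h 3 were higher and 1 lower. Dancr was at 86.1, 207 and 251 CPM, with ratios of 1.26 and 1.53, and Rian, an imprinted host of many C/D snoRNAs, at 47.6, 30.7 and 28.6 CPM. The 32 protein-coding hosts had medians of 0.22 and -0.07, with 4 higher and 1 lower at 3 h and 0 higher and 2 lower at 6 h. Eef2, the translocation factor of translation, had ratios of 0.65 and 0.53, and Rpl7a -0.10 and -0.96. Of all genes, 3.61% were higher and 24.5% lower at 3 h, and 7.06% and 16.9% at 6 h, with medians of -0.27 and -0.12.

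For the proteins that bind and assemble snoRNAs the median ratios were -0.10 and -0.07. Of 19 snoRNP proteins and assembly factors, 1 was at least 1.5-fold higher and 3 lower at 3 h, and 0 and 2 at 6 h, where all genes had 3.61% and 24.5%, then 7.06% and 16.9%. Fbl, the methyltransferase of C/D particles, was at 257, 455 and 380 CPM, with ratios of 0.82 and 0.56. Znhit3, an assembly factor of C/D particles, was at 62.1, 30.4 and 25.9 CPM, with ratios of -1.01 and -1.23.

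The decay machinery and its known targets were read in the same way, beside 3.61% of all genes higher and 24.5% lower at 3 h, and 7.06% and 16.9% at 6 h. Of 12 NMD factors above the level filter, 0 were higher and 1 lower at 3 h, and 0 and 0 at 6 h. Upf2 had ratios of -0.20 and 0.51 and Upf3a -0.67 and -0.52. Of 5 exon junction complex genes, 1 was lower at each time, with Magoh at 0.05 and -0.76. Of 17 genes of the RNA exosome and 5′ decay, 0 were higher and 4 lower at 3 h, and 1 and 3 at 6 h, from Exosc3 at -1.44 to Exosc5 at 0.70 at 6 h. Of 6 NMD-sensitive mRNAs above the filter, 0 were higher and 4 lower at both times, with medians of -0.81 and -1.21. Ddit3, a stress-response transcription factor, was the lowest at -1.88 and -1.53, and Nat9 the highest at 0.37 and 0.50. Snhg12 and Snhg4 ranked 25th and 33rd from the top of the 7884 genes at 3 h, and 68th and 151st at 6 h. They lay above these 6 mRNAs as above nearly all genes, and a link to NMD was not tested.

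Ribosomal protein genes and other genes known for TOP tracts were the last lists. The 82 ribosomal protein genes had medians of 0.30 and 0.06, where all genes had -0.27 and -0.12. At 3 h 11 were higher and 2 lower, against 3.61% and 24.5% of all genes, and at 6 h 2 and 5, against 7.06% and 16.9%. Rps15 had ratios of 1.05 and 1.18 and Rpl9 -0.22 and -1.06. The 15 other genes had medians of 0.10 and -0.07, with 2 higher and 1 lower at 3 h and 0 and 1 at 6 h, and Pabpc1, the cytoplasmic poly(A)-binding protein, was the lowest at -0.89 and -1.29.

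The genes most like the 3 hosts of highest mean level were sought among the 3095 non-host genes averaging 50 CPM or more, by the distance between their pairs of 3 h and 6 h ratios over the 3 libraries. Nearest to Snhg12 were mt-Nd5 (distance 0.15), Ppp1r10 (0.26) and Dancr (0.32), the last a snoRNA host itself. Nearest to Snhg4 were Dzip3 (0.18), Lars2 (0.19) and Ifitm3 (0.26). Lars2 was at 47.0, 116 and 88.3 CPM in cells but at 1354, 396 and 1527 CPM in free RNA, and the part of free RNA in its cell values was not tested. Nearest to Gas5 were Psma1, Hypk and Exosc8, all within 0.030. The nearest genes to Snhg12 and Snhg4 lay farther away than those to Gas5. Few genes have such high ratios (0.888% of all genes were at least 2-fold higher at 3 h), so larger distances follow from the ratios themselves.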

How the data were processed

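UMI counts per gene and barcode were deposited for 3 libraries, made by the authors with Cell Ranger 7.1.0 on mm10, per the submitters' processing notes. The matrices are unfiltered raw counts of 32285 genes. The annotation and the treatment of introns and strand are not given in the sources used here. Cells were called in each library at 1/10 of the 99th percentile of UMIs among the top 3000 barcodes, keeping barcodes with 500 genes or more and no more than 20% of UMIs from mitochondrial genes. No doublet caller was run, and leaving out cells above 2 times the median UMIs was one of the alternatives. Counts were summed over cells and scaled to CPM with Python 3.11.15, numpy 2.4.6, pandas 2.3.3 and scipy 1.17.1, with log2 ratios of CPM + 1 and exact binomial or Poisson 95% intervals. The intervals use the counts without the added 1. TMM factors, an alternative scaling, came from edgeR 4.0.16 in R 4.3.3. Cells held 104892739, 29892000 and 24681924 UMIs in control, 3 h and 6 h, so that 3 counts, the limit a count of 0 allows, equal 0.0286, 0.100 and 0.122 CPM. With 1 library per group no test was made, and a gene was called by size, at least 1.5-fold. The scripts were tested on simulated data.

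Loci and snoRNAs come from GENCODE M21, which holds 32158 of the 32285 identifiers, and start sites from RefSeq. Named genes are the 10 hosts, the highest and lowest 6 h ratio of each other list, neighbours within 5 kb (1 is not reported here), the 3 nearest patterns, and Malat1 and Actb. The hosts and lists were chosen with earlier results of these data known.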

Additional observations from a re-analysis of the deposited data

Results flagged for a closer look

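Gas5 had a log2 ratio to control of 0.0886 at 3 h and -0.38 at 6 h, both with counting intervals that leave out 0, so the 2 time points lay on opposite sides of control. The difference between them was not tested, since each time point is 1 library, and per cell Gas5 was lower than control at both times.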

How the results depend on the processing

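Over 11 settings, the 30 ratios of single hosts gave 330 alternative values, of which 259 stayed within the counting interval, 67 moved and 4 changed sign after a 1.5-fold call. Those 4 are UMIs per cell, where Snhg4 was at -0.71 at 3 h and -1.496 at 6 h, and Snhg12 at -0.44 and -1.13. In that setting the summed hosts were at -1.70, -2.46 and -0.77 (3 h, 6 h, and 6 h against 3 h). There 9, 10 and 6 hosts, all lower, were at least 1.5-fold apart, against 99.5%, 99.6% and 22.2% of all genes lower. The same setting moves the median gene by -1.88, -2.41 and -0.51. Median-of-ratios and TMM factors move it by 0.23 and 0.19 at 3 h and by -0.22 and -0.22 from 3 h to 6 h. With them the summed ratio was 0.57 and 0.52 at 3 h and -0.41 and -0.41 from 3 h to 6 h. From 3 h to 6 h, 3 and 2 hosts were called, all lower, against 6.09% and 5.95% of all genes lower. With TMM factors the summed ratio was 0.11 at 6 h, and with equal weight for each cell 0.35 at 3 h. At 3 h, 43.9% (median-of-ratios) and 35.1% (TMM) of called genes were higher, against 12.9% by CPM, and from 3 h to 6 h 33.8% and 34.5%, against 83.6%. The split of hosts was 3 higher and 3 lower at 3 h with median-of-ratios factors, against 9.01% and 11.5% of all genes. A 2-fold call left 0 hosts from 3 h to 6 h. Without a filter on low genes 17.3% of all genes were at least 1.5-fold apart at 3 h, against 28.1%. No paired analysis was possible because each group has 1 library. No library could be left out for the same reason. Counts limit Snhg6 most, with 248 UMIs at 6 h.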
